A study of Homo sapiens with 6 samples.

Results

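The genes described here are 9 members of the bone morphogenetic protein (BMP) axis, namely the ligand genes BMP2, BMP4 and BMP6, the inhibitor of DNA binding genes ID1, ID2, ID3 and ID4, and the inhibitory SMAD genes SMAD6 and SMAD7. They were taken as every probe set of the array whose annotation names 1 of these symbols and no other gene. This gave 20 of 54613 probe sets that are not controls, and 9 of 19775 genes. A probe set that names ID2 together with ID2B was left out. The cells were ARPE-19, a human retinal pigment epithelium line, grown in medium with 10% serum, and their transcripts were read on Affymetrix arrays. The compared groups were 3 arrays of cells exposed to SRPIN803 at 10 µM for 4 h and 3 arrays of cells given 0.1% DMSO for the same time. The labels do not give the DMSO content for the SRPIN803 arrays. SRPIN803 is a known inhibitor of SRPK1, a kinase of splicing factors, and of the kinase CK2, and the question is how transcripts respond to it within hours. All cells were of this 1 line, and the labels do not say whether replicates were separate cultures, and each p-value therefore reflects only how far these arrays differ, which may be technical.

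BMPs are secreted dimers that bind paired type I and type II serine/threonine kinase receptors, which phosphorylate SMAD1, SMAD5 and SMAD9. These pair with SMAD4, enter the nucleus and activate genes that include the ID genes, and SMAD6 and SMAD7, whose products feed back on the receptors. ID proteins hold a helix-loop-helix but no basic region, so they pair with bHLH transcription factors and keep them off DNA. In the eye, BMPs act in early patterning of the retina and of the pigment epithelium.

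The labelled cell type was set against a list of its markers. MITF and OTX2, transcription factors of the pigment epithelium, had levels of 10.23 and 10.47 (log2, mean of the 6 arrays), and the keratins KRT8 and KRT18 had 12.13 and 13.76, while the epithelial genes KRT19, CDH1 and EPCAM were at 4.03, 4.01 and 3.81. RPE65 and LRAT, enzymes of the visual cycle, were at 2.33 and 2.83, below the median level of all probe sets, 5.26, as were TYRP1 at 3.21 and RRH at 3.51. By brightest probe sets, the 13 pigment epithelium markers had a median level of 5.84, against 6.53 for all genes. In all, 9 of the 13 lay above 5.26, as did 12627 of all 19775 genes. So did 6 of 7 mesenchymal or fibroblast markers, with VIM at 14.46, 2 of 4 blood cell markers (CD3E at 5.59 and HBB at 5.97, with PTPRC at 2.82 and CD14 at 3.72), 1 of 5 endothelial markers (PECAM1 at 6.36, with CDH5 at 2.65) and 1 of 4 photoreceptor and neuron markers (SYT1 at 8.15). None of the 38 marker genes over 6 lists was called. Array medians lay between 5.25 and 5.28, and SRPIN803 replicate 2 was in both the least correlated pair within groups (0.9957) and the least correlated pair between groups (0.9940).

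The upstream sequences of the 4 ID genes are shown because ID2 was the 1 ID gene with a called probe set. Each is the 250 bases before the gene's start on the gene's own strand, from RefSeq (GRCh38.p14). A window was found for 8 of the 9 genes, and BMP2 had none. Capitals mark matches to CCAAT, the NF-Y box, to TATAA, to GGCGCC and to CAGAC, a SMAD binding sequence, on either strand. The motifs were chosen after the sequences were seen. Adjacent matches to TATAA and its other strand can overlap. ID1 lies at chr20:31605039-31605288 (plus strand), ID2 at chr2:8681806-8682055 (plus), ID3 at chr1:23559502-23559751 (minus) and ID4 at chr6:19837120-19837369 (plus).
ID1: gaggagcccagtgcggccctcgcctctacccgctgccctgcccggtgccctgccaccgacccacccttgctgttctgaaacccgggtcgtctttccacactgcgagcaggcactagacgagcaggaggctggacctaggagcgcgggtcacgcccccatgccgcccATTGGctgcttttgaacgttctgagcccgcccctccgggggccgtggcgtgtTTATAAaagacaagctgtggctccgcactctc
ID2: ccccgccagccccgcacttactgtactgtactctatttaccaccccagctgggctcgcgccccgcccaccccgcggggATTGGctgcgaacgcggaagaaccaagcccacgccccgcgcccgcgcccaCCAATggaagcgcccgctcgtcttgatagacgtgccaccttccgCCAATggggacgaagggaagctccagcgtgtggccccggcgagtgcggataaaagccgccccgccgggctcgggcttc
ID3: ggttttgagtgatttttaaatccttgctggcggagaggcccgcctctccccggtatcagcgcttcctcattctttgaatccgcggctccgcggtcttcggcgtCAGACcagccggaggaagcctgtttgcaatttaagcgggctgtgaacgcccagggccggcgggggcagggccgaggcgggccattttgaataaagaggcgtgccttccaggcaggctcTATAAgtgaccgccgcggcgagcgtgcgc
ID4: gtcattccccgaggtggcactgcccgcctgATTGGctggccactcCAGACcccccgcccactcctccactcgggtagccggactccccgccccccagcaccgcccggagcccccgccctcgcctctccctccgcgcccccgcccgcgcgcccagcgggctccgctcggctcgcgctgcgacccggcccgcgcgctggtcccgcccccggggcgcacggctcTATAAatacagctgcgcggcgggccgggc
The ID2 window held CCAAT 3 times, beginning 172, 122 and 78 bases before the start, and no TATAA. The windows of ID1, ID3 and ID4 each held TATAA, beginning 31, 29 and 29 bases before the start. CCAAT occurred once in that of ID1 and once in that of ID4. CAGAC occurred once in that of ID3 and once in that of ID4, and GGCGCC in none of the 4. Over all 35116 windows of the same length, 32.0% held CCAAT, 2.93% held it 3 or more times, 18.9% held TATAA, 38.0% held CAGAC and 16.4% held GGCGCC. These matches describe letters only.

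After SRPIN803, both BMP2 probe sets were called lower and 1 of the 2 ID2 probe sets higher. The other ID2 probe set and that of BMP4 were higher without overlap but not called (limma's adjusted p = 0.0584 and 0.0550). The other ID genes and both inhibitory SMADs showed no change past the threshold. Of the 20 probe sets 1 was called higher and 2 lower at an adjusted p under 0.05 (limma, Benjamini-Hochberg over all probe sets). Over all 54613 probe sets, 1.19% were called higher and 1.03% lower (2.22% in all). The groups did not overlap in 6 of the 20, against 21.5% of all probe sets. The median log2 change was 0.12 over the 20 and 0.0054 over all. In these bulk samples fewer cells of a type and less RNA per cell cannot be told apart.

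**Figure D1:**
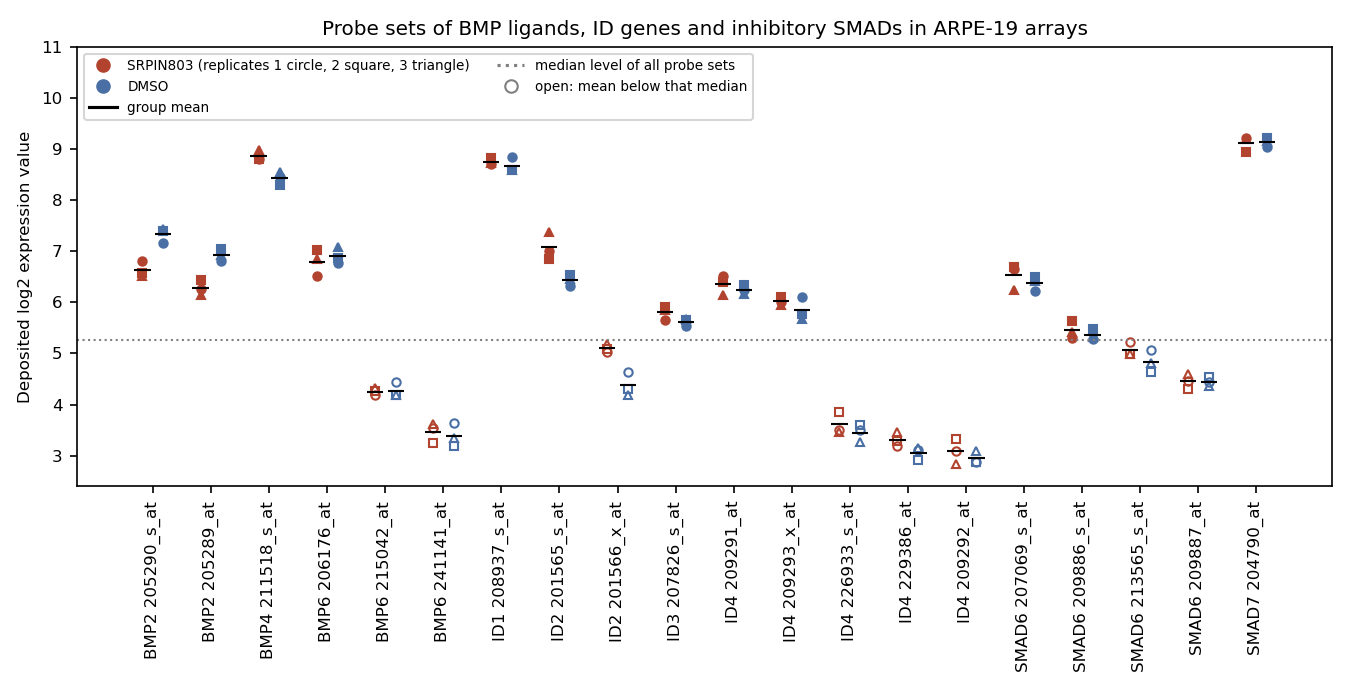
Deposited log2 values (y axis) of the 20 probe sets (x axis) in each array, with SRPIN803 left of DMSO in every pair, 1 symbol per replicate and a bar at each group's mean. Both BMP2 probe sets lie lower, and those of BMP4 and ID2 higher, in all 3 SRPIN803 arrays than in any DMSO array.

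Among the ligands, BMP2 fell. It is known for inducing bone and cartilage. Its brighter probe set, 205290_s_at, read 6.81, 6.58 and 6.53 in SRPIN803 replicates 1, 2 and 3, against 7.17, 7.39 and 7.44 in DMSO replicates 1, 2 and 3. Every SRPIN803 array was below every DMSO array. The means were 6.64 ± 0.15 in SRPIN803 and 7.34 ± 0.15 in DMSO (log2, SD, n = 3 each), a log2 change of -0.70 ± 0.11 (limma's standard error), or 1.62-fold lower (95% interval 1.37 to 1.93), with limma's adjusted p = 0.0217.

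The second BMP2 probe set, 205289_at, gave the same picture. It read 6.26, 6.44 and 6.15 in SRPIN803, against 6.80, 7.05 and 6.92 in DMSO, again without overlap. Its log2 change was -0.64 ± 0.10, 1.56-fold lower, with limma's adjusted p = 0.0228. The 2 BMP2 probe sets did not move apart in limma's diffSplice (adjusted p = 0.891), a test that called 3.36% of 5535 genes. Each call was lost in some of the fits with 1 array left out. Those fits called fewer probe sets in general, 139 to 363 higher and 71 to 353 lower, against 652 and 562 with all arrays. Limma's adjusted p of 205290_s_at was 0.0326 without SRPIN803 replicate 1 and 0.0466 without DMSO replicate 1. It was 0.0584 and 0.0765 without SRPIN803 replicates 2 and 3, and 0.0996 and 0.0978 without DMSO replicates 2 and 3. That of 205289_at was 0.0280 without SRPIN803 replicate 2 and between 0.0585 and 0.0981 without any other array, and log2 changes over these 12 fits stayed between -0.78 and -0.58.

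BMP4, a ligand close in sequence to BMP2, differed in the other direction and just missed the threshold. It read 8.81, 8.81 and 8.98 in SRPIN803, against 8.45, 8.30 and 8.54 in DMSO. The groups did not overlap. The means were 8.87 ± 0.10 in SRPIN803 and 8.43 ± 0.12 in DMSO (log2, SD, n = 3 each), a log2 change of 0.44 ± 0.09 or 1.35-fold (1.17 to 1.57), with limma's adjusted p = 0.0550. Tested among 1 probe set per gene its adjusted p was 0.0279, and it was called there. Without any 1 array the adjusted p was 0.0955 to 0.176.

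BMP6, a ligand known in the liver for iron-dependent control of hepcidin, had 3 probe sets with log2 changes between -0.11 and 0.08, and 95% intervals between -0.43 and 0.40. Its brightest, 206176_at, read 6.52, 7.02 and 6.86 in SRPIN803, against 6.77, 6.87 and 7.08 in DMSO, and the groups overlapped (adjusted p = 0.785). The other 2 lay below the median level of all probe sets.

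Among the ID genes, ID2 was the one with a called probe set. ID2 restrains the E proteins, the widely expressed bHLH factors, and is known for its part in lymphoid development. The called probe set, 201566_x_at, read 5.02, 5.10 and 5.19 in SRPIN803, against 4.63, 4.31 and 4.18 in DMSO. All 3 SRPIN803 arrays were above all DMSO arrays, at a mean below the median level of all probe sets. Its log2 change was 0.73 ± 0.12, 1.66-fold (1.37 to 2.01), with limma's adjusted p = 0.0261. The suffix x marks a probe set whose probes may also bind other transcripts.

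The brighter ID2 probe set, 201565_s_at, read 7.02, 6.85 and 7.38 in SRPIN803, against 6.33, 6.54 and 6.45 in DMSO, also without overlap. SRPIN803 replicate 3 was the highest. The means were 7.08 ± 0.27 in SRPIN803 and 6.44 ± 0.11 in DMSO (log2, SD, n = 3 each), a log2 change of 0.64 ± 0.14 or 1.56-fold (1.26 to 1.94). With limma's adjusted p = 0.0584 over all probe sets it was not called, and among 1 probe set per gene it was (0.0335). Without SRPIN803 replicate 2 it was called over all probe sets (0.0439), and without any other array its adjusted p was 0.0909 to 0.181. The called probe set 201566_x_at kept its call without DMSO replicate 1 (0.0265). It lost it without SRPIN803 replicates 1, 2 and 3 (0.0610, 0.0626 and 0.0904) and without DMSO replicates 2 and 3 (0.116 and 0.0944). The log2 changes over all these fits were 0.49 to 0.86.

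ID1, ID3 and ID4 showed no change past the threshold. ID1, a gene widely read as an early BMP response, had 8.71, 8.83 and 8.73 in SRPIN803, against 8.84, 8.60 and 8.59 in DMSO. DMSO replicate 1 was the highest of the 6 arrays. Its log2 change was 0.08 ± 0.09, with a 95% interval of -0.12 to 0.29 (adjusted p = 0.734), an interval that stops short of the log2 change of either ID2 probe set. ID3 read 5.65, 5.92 and 5.84 in SRPIN803, against 5.53, 5.65 and 5.67 in DMSO, with a log2 change of 0.19 ± 0.09 (-0.02 to 0.39, adjusted p = 0.377). The interval of ID3, and those of the ID4 probe sets, also stopped short of the log2 change of either ID2 probe set. They overlapped the interval of ID2 201565_s_at (0.33 to 0.96), and that of ID1 did not.

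ID4, which is known from neural development, had 5 probe sets, of which 2 lay above the median level of all probe sets. Its log2 changes ran from 0.10 to 0.26 with adjusted p of 0.265 to 0.732. The brightest, 209291_at, read 6.52, 6.41 and 6.14 in SRPIN803, against 6.25, 6.35 and 6.16 in DMSO, and the groups overlapped. The dim 229386_at was the 1 of the 5 whose groups did not overlap, at 3.19, 3.28 and 3.47 in SRPIN803, against 3.10, 2.91 and 3.15 in DMSO. The mean was higher in SRPIN803 in all 9 ID probe sets, and the 95% interval of the change included 0 in 6 of them. With 5 of the 9 from ID4, these are repeated readings of a few genes. The median log2 change over all probe sets was 0.0054.

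Whether ID2 changed by more than the other ID genes was asked from the brightest probe sets within each array. The mean of ID2 minus ID1 (log2) was 0.56 higher in SRPIN803 than in DMSO arrays, that of ID2 minus ID3 0.46 higher and that of ID2 minus ID4 0.54 higher. In each of the 3 pairs no SRPIN803 array overlapped a DMSO array. The pairs share the same ID2 values, whose groups did not overlap on their own, so they are not 3 independent results. The exact two-sided permutation test of 3 against 3 arrays gave p = 0.1 for each pair, also after adjustment over the 3. This is the smallest p the test allows with 3 against 3, so it could not decide the question. Without SRPIN803 replicate 3 the value for ID2 and ID4 was 0.28.

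Neither inhibitory SMAD had a called probe set. SMAD7, which recruits ubiquitin ligases to TGF-beta and BMP receptors, read 9.22, 8.94 and 9.20 in SRPIN803, against 9.05, 9.22 and 9.17 in DMSO. The groups overlapped. Its log2 change was -0.03 ± 0.10 with a 95% interval of -0.25 to 0.20 (adjusted p = 0.938). SMAD6, which acts mainly on the BMP arm, had 4 probe sets with log2 changes of 0.0080 to 0.23 (adjusted p of 0.443 to 0.983). Their 95% intervals all included 0 and lay between -0.21 and 0.52, so a modest rise is not excluded. Its brightest, 207069_s_at, read 6.66, 6.70 and 6.25 in SRPIN803, against 6.23, 6.49 and 6.43 in DMSO. The 2 SMAD6 probe sets above the median level did not move apart (diffSplice, adjusted p = 0.904).

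**Figure D2:**
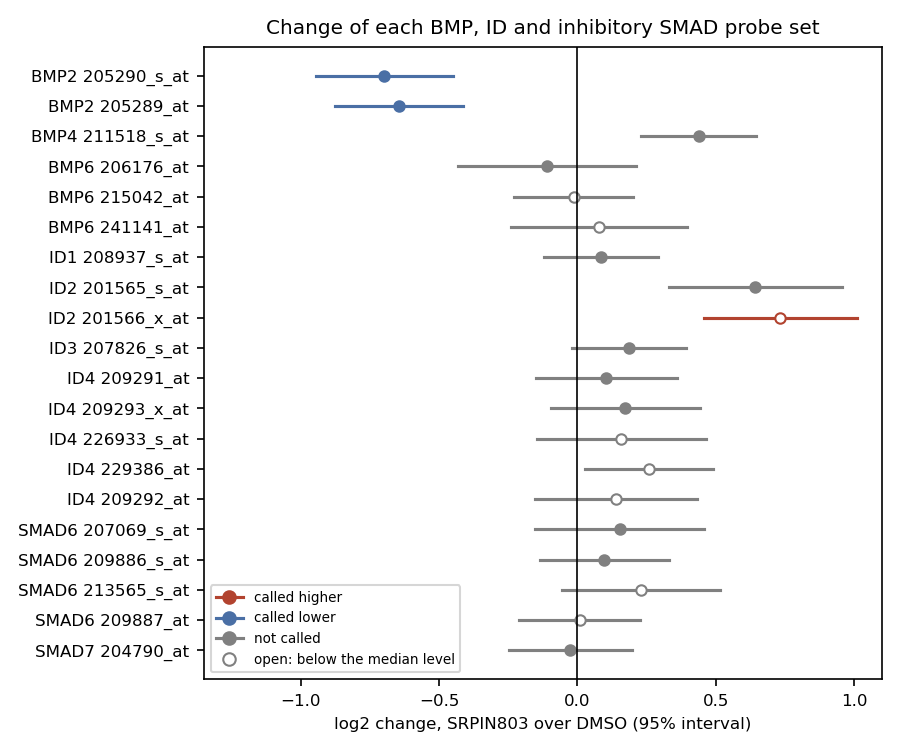
Log2 change of each of the 20 probe sets, SRPIN803 over DMSO (x axis), with 95% confidence intervals, ordered by role from ligands at the top to inhibitory SMADs. Both BMP2 probe sets are called lower and 201566_x_at of ID2 higher, and the intervals of BMP4 and of 201565_s_at of ID2 also lie above 0.

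Genes around this axis were described from 8 lists written from textbook knowledge, each gene by its brightest probe set. Of 104 genes measured, 4 rose and 8 fell at an adjusted p under 0.05, where 1.71% of all genes were called higher and 1.21% lower by that rule. The median log2 change was -0.01 over the 104 genes and 0.02 over all genes. The called genes were found in every list, with no list having more than 3 called.

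The extracellular antagonists held the largest falls. NOG, whose product noggin binds BMPs and keeps them from their receptors, read 8.56, 8.17 and 8.53 in SRPIN803, against 9.14, 9.23 and 9.15 in DMSO. GREM1, which encodes the antagonist gremlin, read 6.74, 6.63 and 6.19 in SRPIN803, against 7.31, 7.30 and 7.32 in DMSO. Neither overlapped between groups. Log2 changes were -0.75 ± 0.11 for NOG and -0.79 ± 0.14 for GREM1, with limma's adjusted p of 0.0182 and 0.0301. The second GREM1 probe set, at -0.76 ± 0.19, was not called (0.0974). These 2 genes were called of 16 antagonists and modulators, whose median log2 change was 0.0077.

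Of 12 other BMP and GDF ligands 1 fell, GDF5, a joint-forming ligand, by 0.41 on the log2 scale (limma's adjusted p = 0.0425). Of 11 receptors and coreceptors 1 fell, RGMB, a membrane-anchored BMP coreceptor. It read 9.46, 9.72 and 9.52 in SRPIN803, against 10.08, 10.17 and 10.19 in DMSO. All 4 RGMB probe sets were called lower, with log2 changes of -0.58, -0.68, -0.62 and -0.61. The type II receptor gene BMPR2 was at 0.10 ± 0.08 and the type I receptor gene ACVR1 at 0.33 ± 0.07 (adjusted p = 0.0651), and neither was called. The receptor gene BMPR1A, also listed, had no probe set naming it alone and was not measured. The other BMPR2 probe sets had log2 changes between -0.37 and 0.07, and none was called. In the lowest of them, 209920_at at -0.37 ± 0.13, the groups did not overlap.

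In the cytoplasmic relay 1 of 6 receptor-activated and common SMADs rose. SMAD9, which BMP receptors activate, read 8.32, 8.41 and 8.40 in SRPIN803, against 7.92, 7.88 and 7.98 in DMSO, a log2 change of 0.45 ± 0.07 (limma's adjusted p = 0.0213). Its other probe set, below the median level, was at 0.11 ± 0.09. SMAD1 and SMAD5, the other SMADs of the BMP arm, were at 0.03 ± 0.08 and -0.13 ± 0.09, and the common SMAD4 at 0.04 ± 0.06. The other SMAD5 probe sets had log2 changes between -0.48 and -0.09, and none was called. In 225223_at, 235451_at and 205188_s_at, the last at -0.39 ± 0.12, every SRPIN803 array was below every DMSO array.

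Of 15 ubiquitin ligases and corepressors 1 fell, SMURF2, a ligase that marks SMADs and receptors for degradation. It read 11.26, 10.94 and 11.13 in SRPIN803, against 11.61, 11.83 and 11.59 in DMSO. Its 4 probe sets had log2 changes of -0.56, -0.69, -0.58 and -0.79, of which 3 were called. The related SMURF1 was at -0.35 ± 0.08 and was not called (adjusted p = 0.0668).

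Other genes known to respond to BMPs went both ways, with 1 of 19 higher and 2 lower. RUNX2, the bone master regulator, read 8.73, 8.77 and 8.68 in SRPIN803, against 9.36, 9.50 and 9.36 in DMSO, a log2 change of -0.68 ± 0.07 (limma's adjusted p = 0.00652). Its other 5 probe sets were at -0.21 to 0.08 and were not called. MSX1, a homeobox gene, changed by -0.45 ± 0.07 (adjusted p = 0.0213), and its second probe set by -0.10 ± 0.17. TBX2, a T-box repressor, changed by 0.56 ± 0.09 (adjusted p = 0.0216), and its other probe sets, at -0.02 to 0.41, were not called.

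Of 8 bHLH genes whose products can pair with ID proteins 1 rose. HES1, a bHLH repressor best known as a Notch target, read 7.09, 6.71 and 6.80 in SRPIN803, against 6.32, 6.12 and 5.98 in DMSO. Its log2 change was 0.73 ± 0.13 (limma's adjusted p = 0.0314), and a second of its 3 probe sets was called too, at 0.48 ± 0.08. The E protein genes TCF3, TCF4 and TCF12 were at -0.10 ± 0.07, 0.06 ± 0.07 and -0.02 ± 0.07. In the neighbouring TGF-beta and activin arm, of 17 genes the activin receptor gene ACVR1B rose (0.44 ± 0.08, adjusted p = 0.0378) and the TGF-beta receptor gene TGFBR2 fell (-0.36 ± 0.07, adjusted p = 0.0424). The other 5 probe sets of ACVR1B had log2 changes between -0.25 and 0.17. TGFBR2 had a dim second probe set at 0.15 ± 0.11, which was not called.

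Among these 12 pathway genes RUNX2 was still called whichever array was dropped (largest adjusted p = 0.0412). The other 11 lost it without each DMSO replicate. GDF5, SMURF2 and TGFBR2 lost it without each SRPIN803 replicate as well. With SRPIN803 replicate 1 left out NOG, GREM1, SMAD9, MSX1 and ACVR1B were still called, without replicate 2 NOG, RGMB and HES1, and without replicate 3 GREM1 and TBX2. The adjusted p of these 11 reached at most 0.156 and no sign changed in these fits. With the mean of all probe sets per gene RUNX2, MSX1, TGFBR2 and ACVR1B were not called (adjusted p of 0.0677, 0.121, 0.533 and 0.999), and the change of ACVR1B was -0.00027.

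**Figure D3:**
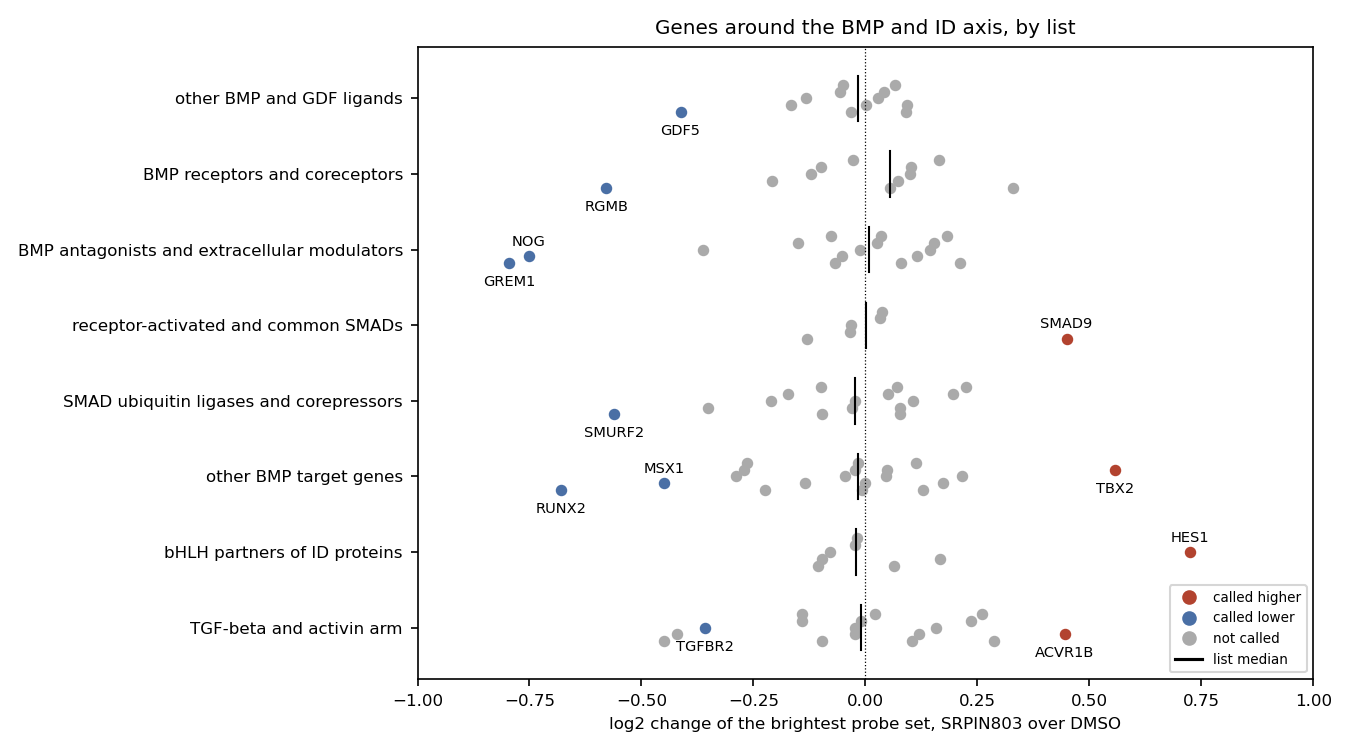
Log2 change of the brightest probe set of each of 104 pathway genes, SRPIN803 over DMSO (x axis), by list (y axis), with called genes named and a black line at each list's median. NOG at -0.75 and GREM1 at -0.79 lie farthest to the left and HES1 at 0.73 farthest to the right, while the medians of the lists lie between -0.02 and 0.05. Points are spread vertically for legibility only.

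The genes whose values over the 6 arrays were most like those of the called probe sets were found by Pearson correlation among 12626 other genes at or above the median level. For 205290_s_at of BMP2 they were MAP3K21, GOLPH3, JUND, METTL8 and RIN1 (r of 0.992 to 0.996), and for 205289_at of BMP2 they were ZSWIM6, B3GNT2, PROSER1, FARP2 and ZNF239 (0.994 to 0.996). For 201566_x_at of ID2 they were GEMIN2, RPAIN, TCEAL1, COA5 and GUCD1 (0.992 to 0.996). Over these 6 arrays in 2 groups, 491, 644 and 543 genes had r over 0.9 with these 3 probe sets, so a high r was not particular to the genes named. None of the 15 genes was called itself, with log2 changes between -0.37 and 0.26.

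**Figure D4:**
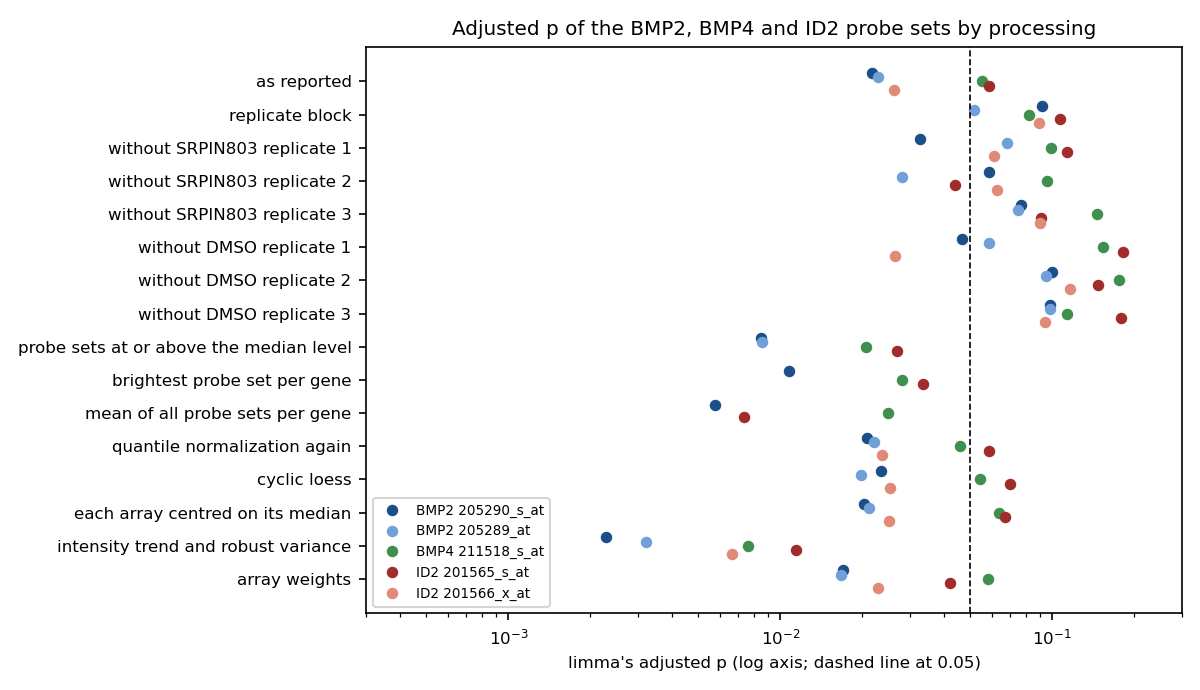
Limma's adjusted p (x axis, log scale) of the BMP2, BMP4 and ID2 probe sets under each processing (y axis), with a dashed line at 0.05. For the mean of all probe sets per gene the value is drawn at the gene's brighter probe set. The BMP2 points lie left of the line in all settings that keep the 6 arrays without a block, and BMP4 and 201565_s_at of ID2 lie on either side of it.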

How the data were processed

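Per the submitters' processing notes, the authors made the deposited log2 values with RMA, which corrects background, normalizes between arrays and summarises probes. Its version is not given in the sources used here. These values were used as they stand. Sorted values differed between arrays by at most 0.14, so a change in total RNA would be hidden. Arrays give no read depth, and 3 per group limit the precision. The platform's annotation named 1 gene for 41091 of 54613 probe sets (62 controls left out), several for 1801 and none here for 11721. The comparison used limma 3.58.1 (R 4.3.3), a linear model per probe set with moderated variances and the group alone as a term, two-sided and Benjamini-Hochberg adjusted over all probe sets, with no filter. The genes and lists were chosen with earlier results of these data known. Named genes were all 9 genes, up to 5 called genes of each list or the 1 with the smallest p, and the 5 genes most alike to each called probe set. BMPR2, ACVR1, SMAD1, SMAD4, SMAD5, SMURF1, TCF3, TCF4 and TCF12 were named outside this rule. The fits were tested on simulated data. Alternatives covered a replicate block, arrays left out, a filter on dim probe sets, 1 value per gene, normalization, variance model and array weights. Plots used matplotlib 3.10.9 in Python 3.11.15.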

Additional observations from a re-analysis of the deposited data

How the results depend on the processing

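Directions of BMP2, BMP4 and ID2 were the same in every alternative tried, and their calls were not. Same-numbered arrays did not deviate together: correlations of deviations from the group means were 0.136, -0.071 and 0.066 for numbers 1, 2 and 3, and arrays did not all correlate best with their own number. With the replicate block 194 probe sets were called higher and 110 lower, 0 of the 20 higher and 0 lower, and 1 pathway gene higher and 1 lower. With that block diffSplice called 122 genes, against 186 of 5535 (3.36%) without it. By limma without the block, 652 probe sets were called higher and 562 lower. At or above the median level alone these were 1411 and 1256, with 2 of the 9 genes' probe sets higher, and with an intensity trend and robust variance 1572 and 1425, with 3 higher and 7 pathway genes higher. Testing the brightest probe set per gene gave 2 genes higher (BMP4, ID2) and 1 lower (BMP2), and so did the mean of all probe sets per gene. Quantile normalization again gave 2 probe sets higher, as did array weights. With 1 array left out, 139 to 363 probe sets were called higher and 71 to 353 lower, 0 to 1 of the 20 higher and 0 to 1 lower, and 0 to 2 pathway genes higher and 1 to 4 lower. DiffSplice then called 41 to 290 genes. Of the 9 genes only BMP2 and SMAD6 were tested in these fits, and neither was called in any (smallest adjusted p 0.615). The others, ID2 and ID4 among them, were not tested there, so nothing follows for their probe sets. ID2 against ID1 ranged from 0.40 to 0.71, against ID3 from 0.33 to 0.63 and against ID4 from 0.28 to 0.68.

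Some signs turned. The mean of all probe sets put ACVR1B, called at 0.44 on its brightest probe set, at -0.00027, centring on the median put SMAD6 209887_at at -0.0040 and array weights put BMP6 215042_at at 0.0065. With 1 array left out, BMP6 206176_at ranged from -0.22 to 0.029, 215042_at from -0.058 to 0.075 and 241141_at from -0.023 to 0.20, SMAD6 209887_at from -0.064 to 0.081 and SMAD7 204790_at from -0.076 to 0.062. The causes were not tested.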

Other observations

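Probe sets of 3 neighbouring genes, named after their values were seen, add detail that the brightest probe set does not show. Those of TGFB2, a TGF-beta ligand, moved apart in limma's diffSplice (adjusted p = 0.0045 over 5535 genes). Its probe set 209908_s_at read 5.72, 5.00 and 5.31 in SRPIN803, against 6.64, 6.25 and 5.95 in DMSO, a log2 change of -0.94 ± 0.22 that was not called over all probe sets (adjusted p = 0.0760). The 3 bright TGFB2 probe sets were at -0.0088 ± 0.092, 0.09 ± 0.11 and 0.04 ± 0.12, and the fifth, 220406_at, at 0.35 ± 0.15.

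INHBA, which encodes the activin A subunit, was lower in all 3 SRPIN803 arrays than in any DMSO array on each of its 3 probe sets. Its 210511_s_at read 9.22, 9.46 and 9.15 in SRPIN803, against 9.80, 9.74 and 9.79 in DMSO, and was called (-0.50 ± 0.09, limma's adjusted p = 0.0394). The other 2, at -0.45 ± 0.12 and -0.38 ± 0.10, were not (0.106 and 0.111). ZEB2, a SMAD-interacting repressor, had 1 called probe set of 5, 235593_at, which read 6.78, 6.84 and 6.93 in SRPIN803, against 6.24, 6.36 and 6.37 in DMSO (0.53 ± 0.08, limma's adjusted p = 0.0166). Its brightest was at 0.20 ± 0.11 (0.437).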
